A study of Mus musculus with 6 samples.

Results

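Epithelial antimicrobial and oxidant defence genes encode the proteins with which the gut lining keeps bacteria off its surface. The group described here was set by name: Reg3b, Reg3g, Ang4, Lcn2, Saa1, Saa3, Nos2, Duox2, Duoxa2 and Pigr. Probes were found through their RefSeq accession for 9 of these 10 genes, out of 23462 named genes on the array; Duox2 was not analysed here: no probe's accession was paired with it in the annotation used for names, which does not list every accession on the array, so a probe for it may be among those left unnamed. The 9 genes were read by 11 probes, with 2 probes each for Lcn2 and Pigr and 1 for every other gene, out of 56605 probes.

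In the colon, bacteria and injury are sensed by epithelial cells and by immune cells beneath them, and interleukin-22, interleukin-17, interleukin-1 and interferon gamma pass the signal on. Epithelial cells answer with lectins that bind bacterial walls, with proteins that withhold iron, with serum amyloid A and with enzymes that make hydrogen peroxide or nitric oxide. Several of these genes are also active in neutrophils and macrophages, so in whole tissue the source of a transcript is not given by the transcript alone.

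The samples were colon from 3 control mice (titled WT) and 3 mice labelled Islr knockout, all male, with 1 single-colour Agilent array per mouse. The product of Islr is a secreted protein with leucine-rich repeats and an immunoglobulin fold. The sample source states that all 6 mice, controls included, drank 3.5% dextran sulfate sodium (DSS), a polysaccharide that injures the colonic lining, over 5 days and then recovered for 1 day, whereas the labels' treatment field reads as no treatment. There was no group without DSS, and the labels do not say in which cells Islr was deleted. The comparison asks how colonic gene expression differs without Islr at this time. In bulk tissue, fewer cells of a type and less RNA per cell cannot be told apart.

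Values are log2 of the processed spot signal minus the 75th percentile of that array, so 0 is the 75th percentile and 1 unit is a doubling. That percentile was 6353 to 7110 intensity units on control arrays and 4910 to 5820 on knockout arrays. Between 69.4% and 75.4% of spots were well above background on an array, and no spot was saturated. Control arrays occupied 1 slide row and knockout arrays the other, so row and genotype cannot be told apart. At the Islr probe the log2 signal was 1.57, 1.24 and 1.21 in controls and -1.40, -0.93 and -1.31 in knockouts, a fall of 2.55 with outlier spots kept (SE 0.20, limma adjusted p 0.00741). Although the series' design text speaks of a flow separation, without a named population, markers of several tissues were present: 12 of 12 epithelial, 9 of 9 macrophage, 5 of 5 fibroblast and 9 of 10 neutrophil markers were well above background on at least 1 array. Ngp, a neutrophil granule gene, was not well above background on any.

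Upstream sequence is shown for Reg3b and Reg3g, whose signals varied most from mouse to mouse, and for Lcn2, the gene that fell. RefSeq promoter windows (mouse build GRCm38.p6) were matched for 9 of the 10 genes, all but Nos2. The 250 bases before the annotated start were searched on both strands for GGG followed by any 5 bases and CC (similar to the site of NF-kappa B), TTCNNNGAA (similar to the site of STAT factors) and TTGCNNAA (similar to the site of C/EBP factors). Capitals mark each match below, and everything else is in lower case. Reg3b lies on the forward strand at chr6:78370635-78370884, Reg3g on the reverse strand at chr6:78468875-78469124 and Lcn2 on the reverse strand at chr2:32387740-32387989.
Reg3b: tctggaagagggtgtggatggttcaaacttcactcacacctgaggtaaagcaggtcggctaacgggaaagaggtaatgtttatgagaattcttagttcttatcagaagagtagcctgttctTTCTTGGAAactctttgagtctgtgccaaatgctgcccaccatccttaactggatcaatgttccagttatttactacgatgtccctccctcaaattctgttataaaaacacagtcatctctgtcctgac
Reg3g: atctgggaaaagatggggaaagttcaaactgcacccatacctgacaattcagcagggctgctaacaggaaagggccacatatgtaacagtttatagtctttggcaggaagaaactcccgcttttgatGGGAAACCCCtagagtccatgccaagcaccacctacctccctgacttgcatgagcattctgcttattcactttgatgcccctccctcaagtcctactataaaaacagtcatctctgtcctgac
Lcn2: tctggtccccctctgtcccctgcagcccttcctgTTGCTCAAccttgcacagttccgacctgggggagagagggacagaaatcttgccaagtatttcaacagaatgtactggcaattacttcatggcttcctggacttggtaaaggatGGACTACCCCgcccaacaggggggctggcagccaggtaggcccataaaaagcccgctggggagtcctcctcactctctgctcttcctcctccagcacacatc
Reg3b held the STAT-like letters 129 to 121 bases before its start, and Reg3g the kappa B-like letters 123 to 114 bases before its own. Lcn2 held kappa B-like letters on the opposite strand at 102 to 93 bases and C/EBP-like letters at 216 to 209 bases. Of the windows not printed, Ang4 held STAT-like letters, Saa1 kappa B-like and C/EBP-like letters, and Saa3 C/EBP-like letters. Pigr held 3 kappa B-like matches, some overlapping, and neither Duox2 nor Duoxa2 held any match. The kappa B-like letters are common: 45.8% of 32851 windows of the same length held them. The STAT-like letters were in 7.02% and the C/EBP-like letters in 9.56% of these windows. Reg3b and Reg3g shared 173 of 247 aligned bases (70.0%). By share of alignment columns they stood at 68.4%, and the other 35 pairs of the 9 windows lay between 42.6% and 52.6%. A match of letters is a description and not a binding site.

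Each of the 11 probes exceeded background clearly on all 6 arrays. The scanner software marks spots of uneven brightness, or unlike other spots of the same probe, as outlier spots. These marks fell mostly on bright spots: they covered 3.26% to 16.0% of all spots of an array and 10.69% to 56.8% of its brightest 10%. With marked spots treated as missing, 6 probes of 5 genes kept 2 or more usable values per group and could be tested. Reg3b, Reg3g, Ang4, Saa3 and the second Lcn2 probe had too few and could not. With marked spots kept as measured, all 11 probes were tested, and both readings are given. The plot of signals by array marks these spots as open circles.

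**Figure D1:**
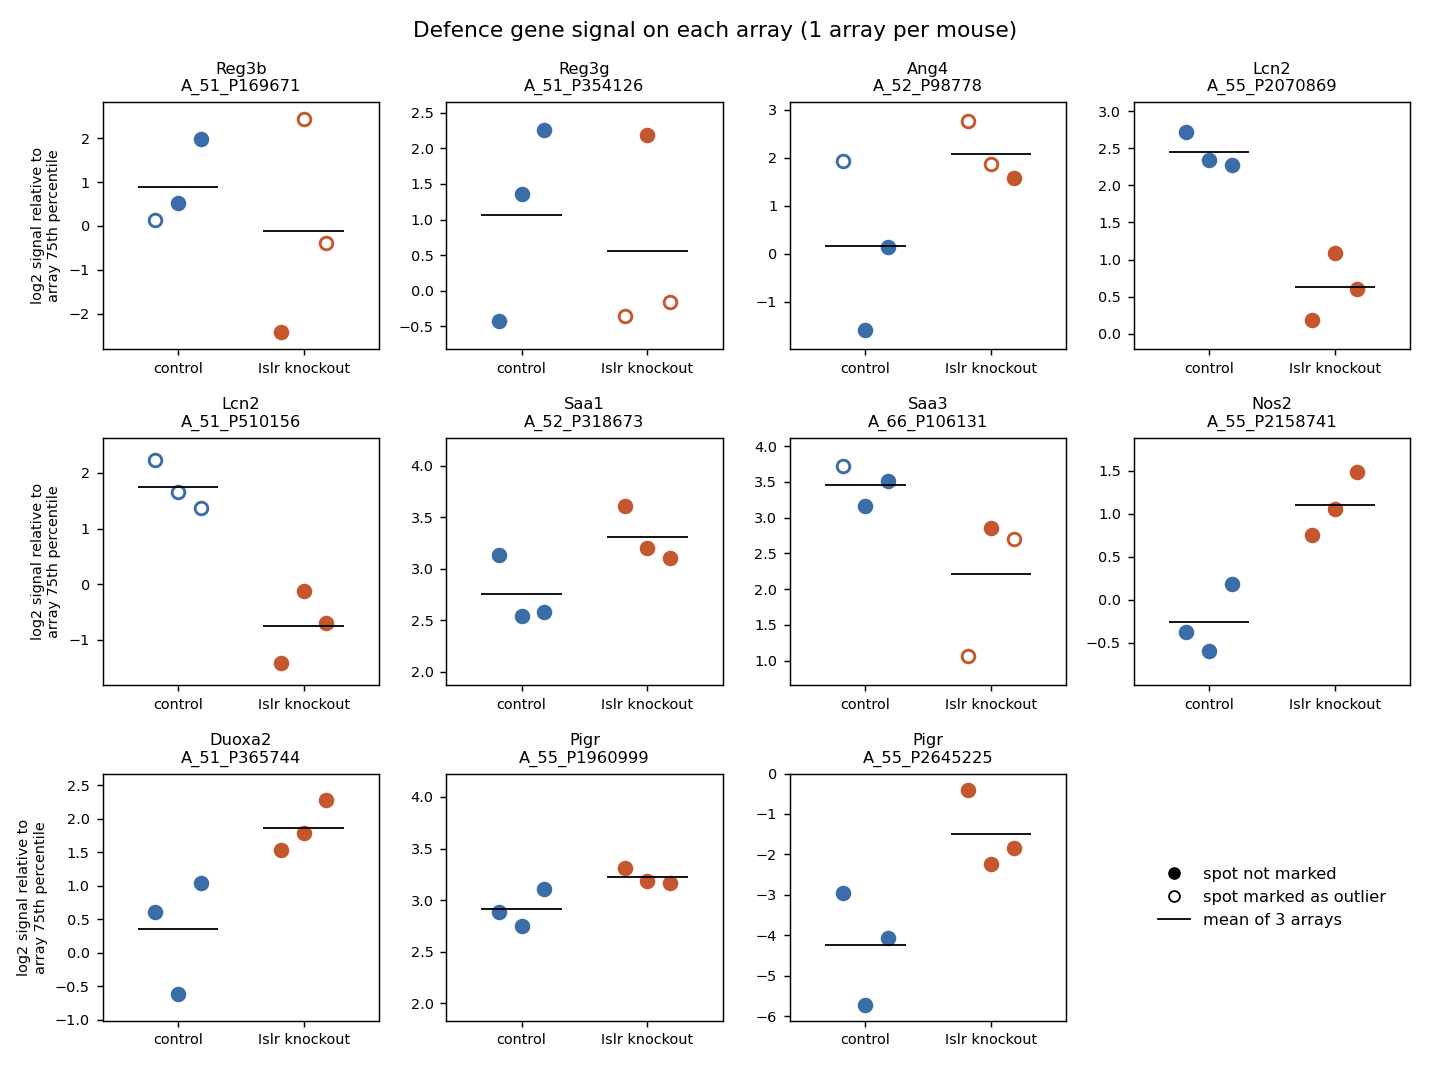
Log2 signal minus the 75th percentile of its array (vertical axis, scaled separately in each panel) for the 11 probes in 3 control and 3 Islr knockout mice, with 1 point per array, open where the spot was marked as an outlier, and a line at the mean. The groups are apart at both Lcn2 probes, Saa3, Nos2, Duoxa2 and both Pigr probes and overlap at Reg3b, Reg3g, Ang4 and Saa1.

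Lcn2 fell in the knockout, and among the 6 probes testable with outlier spots missing it was the only one called at an adjusted p below 0.05, where 3.97% of all 35351 tested probes were called (1.55% higher and 2.42% lower). At an unadjusted p below 0.05, 4 of the 6 probes passed, against 26.8% of all probes. The shares of 3.97% and 26.8% are those to set beside the counts of related genes and markers given below. With outlier spots kept, 3 of the 11 probes were called, both Lcn2 probes lower and the Nos2 probe higher, where 4.85% of 40172 probes were called (1.96% higher and 2.89% lower). The groups did not overlap at 7 of the 11 probes, against 34.9% of all probes; 4 were wholly higher in the knockout (17.3% of all probes) and 3 wholly lower (17.6%). For an exact permutation test of 3 against 3, the 7 probes gave p = 0.1, the smallest value that test can give. The 11 differences with outlier spots kept had a median of 0.31, with 6 above 0 and 5 below, and the median over all tested probes was 0.01.

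Reg3b and Reg3g are secreted C-type lectins that kill bacteria or hold them away from the epithelium, and both differed more within a genotype than between genotypes. Here and below, values are in the order of replicates 1, 2 and 3. Reg3b was 0.13, 0.52 and 1.99 in controls and -2.41, 2.43 and -0.38 in knockouts. Both the highest and the lowest value of all 6 arrays were knockouts, 28.7-fold apart, and the groups overlapped. The difference was -1.002 (SE 1.17) with an adjusted p of 0.614 in limma, and it was 0.14 without knockout replicate 1, so its direction rests on that mouse. Reg3g was -0.42, 1.36 and 2.25 in controls and -0.36, 2.18 and -0.16 in knockouts. Control replicate 3 and knockout replicate 2 were high and control replicate 1 and knockout replicates 1 and 3 were low, so each genotype held high and low arrays. Its difference was -0.51 (SE 0.88, limma adjusted p 0.737), and 0.08 without control replicate 3.

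The spread of the Reg3 probes was among the widest on the array. The SD within groups was 1.85 for Reg3b and 1.39 for Reg3g, higher than at 99.9% and 99.5% of the 36662 probes well above background on all arrays, whose median was 0.26. Of the Reg3b spots 3 were outlier spots (control replicate 1 and knockout replicates 2 and 3), and of the Reg3g spots 2 (knockout replicates 1 and 3). The gap between Reg3g and Reg3b differed between genotypes by 0.49, with overlapping groups (exact permutation p = 0.7, adjusted 0.84 over 6 pairs of probes). Il22, which encodes a cytokine that induces both lectins, was -2.90, 0.66 and 0.26 in controls and -2.83, -1.61 and -0.44 in knockouts at its brighter probe. Control replicate 1 and knockout replicate 1 were the low arrays for Il22 and were also low for Reg3g, but knockout replicate 2, high for both lectins, was not high for Il22. The difference at Il22 was -0.97 (limma adjusted p 0.583).

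Other Reg genes gave a partial picture. Reg1, Reg2 and Reg3a were not well above background on any array. Reg4, a lectin of goblet and deep crypt secretory cells, was -0.14, -4.89 and -2.25 in controls and 1.09, -1.92 and 0.41 in knockouts, with 2 outlier spots. Its difference was 2.82 with those spots missing and 2.29 with them kept (limma adjusted p 0.213 and 0.294). Reg3d differed by 0.62 (adjusted p 0.239), so neither of the 2 tested Reg genes outside the group was called.

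**Figure D2:**
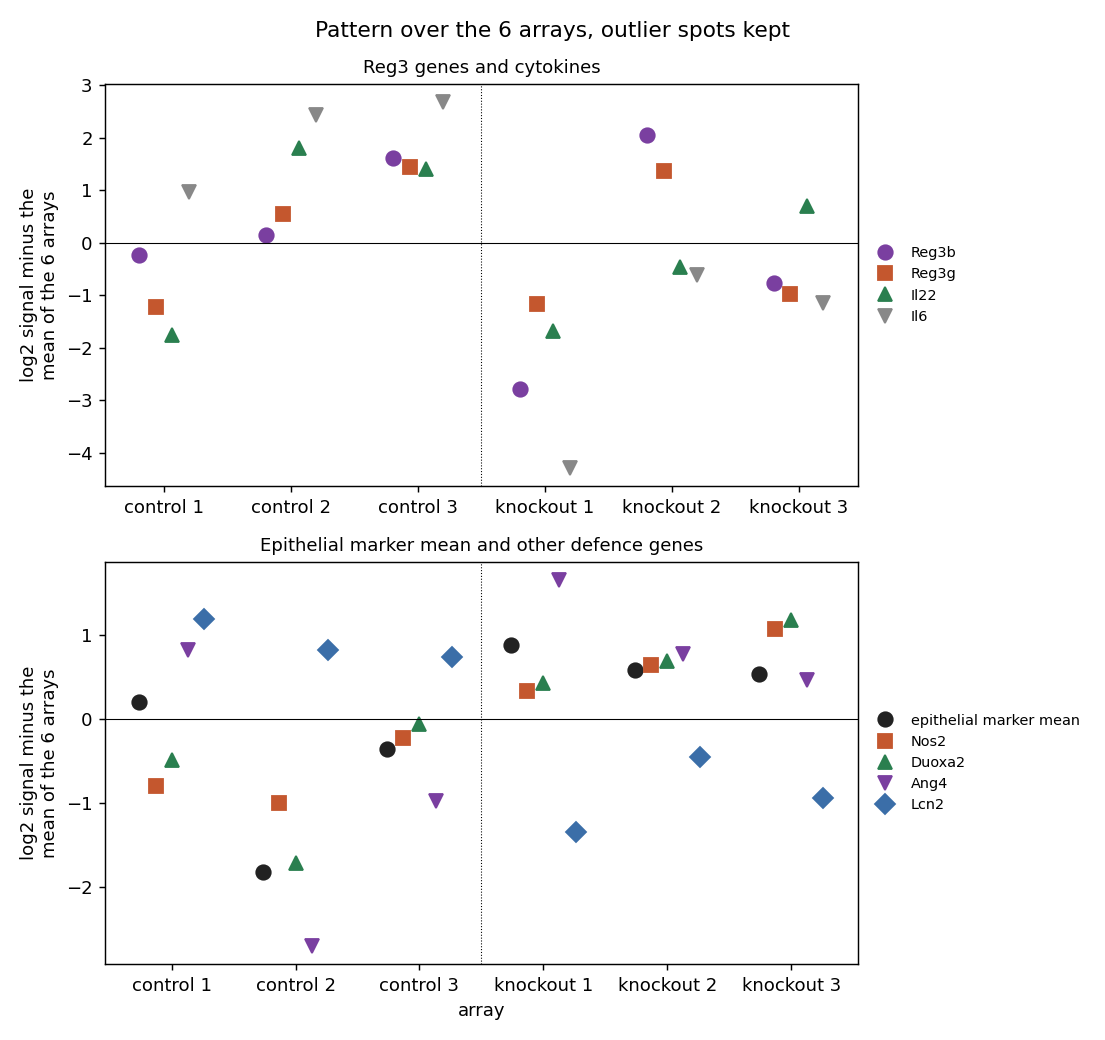
Log2 signal minus the mean of the 6 arrays (vertical axis) for each array (horizontal axis), with outlier spots kept and 1 symbol per gene. Reg3b and Reg3g are high on control 3 and knockout 2 and low on knockouts 1 and 3, and Reg3g is lowest on control 1. Lcn2 is high on all controls and low on all knockouts, and Nos2 and Duoxa2 are the reverse.

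Ang4 encodes a secreted ribonuclease of the angiogenin family that kills bacteria and is made by Paneth and goblet cells. Its signal was 1.93, -1.59 and 0.13 in controls and 2.76, 1.87 and 1.57 in knockouts. Control replicate 1 lay among the knockouts, and control replicate 2 was far below them. With outlier spots kept the difference was 1.91 (SE 0.84), and limma gave an adjusted p of 0.1996. Without control replicate 1 the difference was 2.80 and the adjusted p 0.0469, and the lowest difference with an array left out was 1.04. Related ribonucleases differed in sign and none passed: the differences were 1.17 for Ang (adjusted p 0.186), 1.23 for Ang2 (0.1801 with outlier spots kept), 1.64 for Ang6 (0.223) and -0.76 for Rnase4 (0.139). Transcripts of these close relatives may be captured by each other's probes.

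Goblet and Paneth cell markers are given beside Ang4. All 5 tested goblet markers and all 3 tested Paneth markers were above 0, with medians of 1.00 and 1.01, and limma called 0 of these 8 (1 at an unadjusted p below 0.05). The summed goblet signal, in multiples of the array's 75th percentile, was 11.98 to 59.3 in controls and 52.7 to 72.9 in knockouts, and the Paneth sum was 6.10 to 13.4 and 7.18 to 8.79. Control replicate 2 was the lowest array for Ang4 and for both sums. The part of these cells in the Ang4 difference was not tested.

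Lcn2 encodes lipocalin 2, which binds the siderophores with which bacteria collect iron; it is made by injured epithelium and stored in neutrophil granules. At its brighter probe (A_55_P2070869), free of outlier spots, the log2 signal was 2.73, 2.35 and 2.27 in controls and 0.19, 1.09 and 0.60 in knockouts. Every knockout lay below every control, and the means of 2.45 ± 0.24 and 0.62 ± 0.45 (SD, n = 3) were further apart than the range within either group. The signal fell by 1.82 on the log2 scale (SE 0.26), 3.54-fold lower in the knockout, with a limma adjusted p of 0.0302. The adjusted p stayed at or below 0.0480 in the 8 alternatives with all 6 arrays. It was above 0.05 when any of 4 arrays was left out: control replicate 2 (0.0843) or 3 (0.0772), or knockout replicate 1 (0.0567) or 3 (0.0828), while the difference kept its sign, from -2.05 to -1.61.

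The second Lcn2 probe (A_51_P510156) read the same transcript with a larger difference. It was 2.23, 1.66 and 1.36 in controls, all 3 of them outlier spots, and -1.41, -0.12 and -0.70 in knockouts, none of them marked. The signal fell by 2.49 (SE 0.37, limma adjusted p 0.0275 with outlier spots kept), and without any of the 4 arrays just named it was not called (0.0589 to 0.0845). The gap between the 2 probes itself differed by -0.67 between genotypes without overlap (exact permutation p = 0.1, adjusted 0.15), so the probes do not give one fold change.

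Most neutrophil markers were lower in the knockout, as Lcn2 was. Of 8 tested neutrophil markers 7 were below 0 and 6 were called, all lower, with a median of -2.40. Over all tested probes 2.42% were called lower. Of the called markers, Stfa2 exceeded background clearly on 0 knockout arrays and Mmp8 and Mmp9 on 2. These markers entered the test through the control arrays alone, so the size of their falls is uncertain. Csf3r differed by 0.17 (limma adjusted p 0.483). Ly6g, not testable with outlier spots missing, differed by 0.78 with them kept (adjusted p 0.106). S100a8 and S100a9, subunits of calprotectin, which withholds zinc and manganese from microbes and fills neutrophils, fell by 3.92 (SE 0.53, adjusted p 0.0327) and 3.73 (SE 0.46, adjusted p 0.0245). Other defence genes also found in neutrophils did not fall with them. Ltf was 3.66 higher (limma adjusted p 0.0299), Pglyrp1 differed by 0.92 (0.114) and Mpo by -0.20 (0.464). The summed signal of all 10 neutrophil markers overlapped, at 18.5 to 20.9 in controls and 17.5 to 19.0 in knockouts. It is a sum in which bright genes weigh most. The part of neutrophils in the Lcn2 difference was not tested. Epithelial markers went the other way, as described beside the oxidant enzymes.

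Saa1 and Saa3 encode serum amyloid A proteins, acute phase apolipoproteins; in the gut both are induced in epithelium, and Saa3 also in macrophages. Saa1 was 3.14, 2.54 and 2.58 in controls and 3.60, 3.20 and 3.10 in knockouts, so control replicate 1 lay just above the lowest knockout. The difference was 0.55 (SE 0.23) and was not called (limma adjusted p 0.188). Saa2, a near-identical neighbour whose transcripts the Saa1 probe may capture, was 0.55 higher with its outlier spot missing and 0.72 with it kept (adjusted p 0.245 and 0.128).

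Saa3 had the opposite sign. It was 3.72, 3.16 and 3.51 in controls and 1.06, 2.86 and 2.70 in knockouts, with knockout replicate 1 far below the other 5. The difference was -1.26 (SE 0.48, limma adjusted p 0.151, outlier spots kept), and -0.68 without knockout replicate 1, whose spot was an outlier spot. Within each array, Saa3 minus Saa1 was 0.58, 0.62 and 0.93 in controls and -2.54, -0.34 and -0.40 in knockouts. This gap was lower in all 3 knockouts, by 1.81 on average (exact permutation p = 0.1, adjusted 0.15 over 6 pairs). Saa4 was well above background on all control arrays and on 0 knockout arrays, and it was not called (adjusted p 0.163). Macrophage markers were below 0 in 6 of 8 tested genes, with a median of -0.74 and 0 called by limma (5 at an unadjusted p below 0.05); their summed signal was 25.5 to 33.6 in controls and 23.8 to 25.8 in knockouts, and their part in the Saa3 difference was not tested.

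Nos2 encodes inducible nitric oxide synthase, which makes nitric oxide from arginine in inflamed epithelium and in activated macrophages. Its signal was -0.38, -0.59 and 0.18 in controls and 0.75, 1.06 and 1.48 in knockouts, without overlap and with no outlier spot. Control mice averaged -0.26 ± 0.40 and knockout mice 1.098 ± 0.37 (SD, n = 3), a difference of 1.36 (SE 0.28), or 2.56-fold higher in the knockout. Its adjusted p lay on the threshold: 0.0501 in limma with outlier spots missing elsewhere and 0.0466 with them kept. Of 8 alternatives on all arrays 7 called it, with adjusted p from 0.0100 to 0.0761, and it was called in none of the 6 fits that left out an array with outlier spots missing, nor in the 6 with them kept (0.0642 to 0.132).

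Duoxa2 encodes the partner that carries the hydrogen peroxide producing oxidase DUOX2 to the cell surface. It was 0.61, -0.61 and 1.05 in controls and 1.53, 1.78 and 2.27 in knockouts. All knockouts lay above all controls, and control replicate 2 was lowest. The difference was 1.51 (SE 0.44) and was not called (limma adjusted p 0.0923), except with array weights (2.18, adjusted p 0.0204). Duoxa2 minus Nos2 differed by 0.15 between genotypes, with overlapping groups (exact permutation p = 1, 6 pairs); with 3 mice per group this does not show that they respond alike. The related partner Duoxa1 was 1.47 higher at its brighter probe and 0.38 at its other (adjusted p 0.219 and 0.458), and Duox1 was well above background on 1 array.

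Epithelial markers, summed or averaged over the list, were higher on every knockout array than on any control array. All 10 tested epithelial markers were above 0, with a median of 1.21, and limma called 0 of them. At an unadjusted p below 0.05 there were 2, against 26.8% of all probes. With outlier spots kept, as in the sums and means below, 7 of 12 passed that level, against 10953 of 40172 probes. In that reading too limma called 0 of the markers at an adjusted p below 0.05. Their summed signal was 25.9 to 77.4 in controls and 92.3 to 119 in knockouts. The mean log2 signal of the 12 markers was 2.48, 0.45 and 1.91 in controls and 3.16, 2.86 and 2.81 in knockouts, a difference of 1.33 (exact permutation p = 0.1). Control replicate 2, lowest for these markers, was also the lowest array for Ang4, Saa1, Nos2, Duoxa2 and both Pigr probes. Each probe was therefore also read relative to that mean, a scale chosen after the values were seen. On it, Nos2 differed by 0.03 and Duoxa2 by 0.19, with overlapping groups (exact permutation p = 1 and 0.7). Reg3b differed by -2.33 and Reg3g by -1.84, still with overlap (exact permutation p = 0.2 for each). Ang4 differed by 0.58 (exact p = 0.3), Saa1 by -0.78, Saa3 by -2.58 and the Lcn2 probes by -3.15 and -3.82, each of the last 4 without overlap (exact p = 0.1). Whether epithelial content sets these differences was not tested.

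Pigr encodes the polymeric immunoglobulin receptor, which carries IgA across the epithelium into the lumen. Its bright probe (A_55_P1960999) was 2.88, 2.75 and 3.11 in controls and 3.31, 3.18 and 3.17 in knockouts, without overlap but by a small step. The difference was 0.31 (SE 0.16, limma adjusted p 0.262). Its dim probe (A_55_P2645225) was -2.94, -5.71 and -4.07 in controls and -0.40, -2.24 and -1.84 in knockouts, a difference of 2.75 (SE 0.77, adjusted p 0.0861). Without control replicate 1 that difference was 3.40 and was called with outlier spots kept (adjusted p 0.0450). The 2 probes differed by 2.44 in their response without overlap (exact permutation p = 0.1, adjusted 0.15). Relative to epithelial markers the bright probe differed by -1.02 and the dim probe by 1.42, so the direction for Pigr depends on the probe and the scale.

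The cells and chains that supply IgA are given beside Pigr. Of 5 tested plasma cell markers 5 were below 0 and 2 were called, Derl3 (-1.42, adjusted p 0.0306) and Tnfrsf17 (-1.58, adjusted p 0.0474), with a summed signal of 20.9 to 22.4 in controls and 15.2 to 17.4 in knockouts. Over all tested probes 2.42% were called lower. Jchain, the chain that binds Pigr's cargo together, differed by -0.39 with outlier spots kept (adjusted p 0.161). The part of plasma cells in the Pigr values was not tested.

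**Figure D3:**
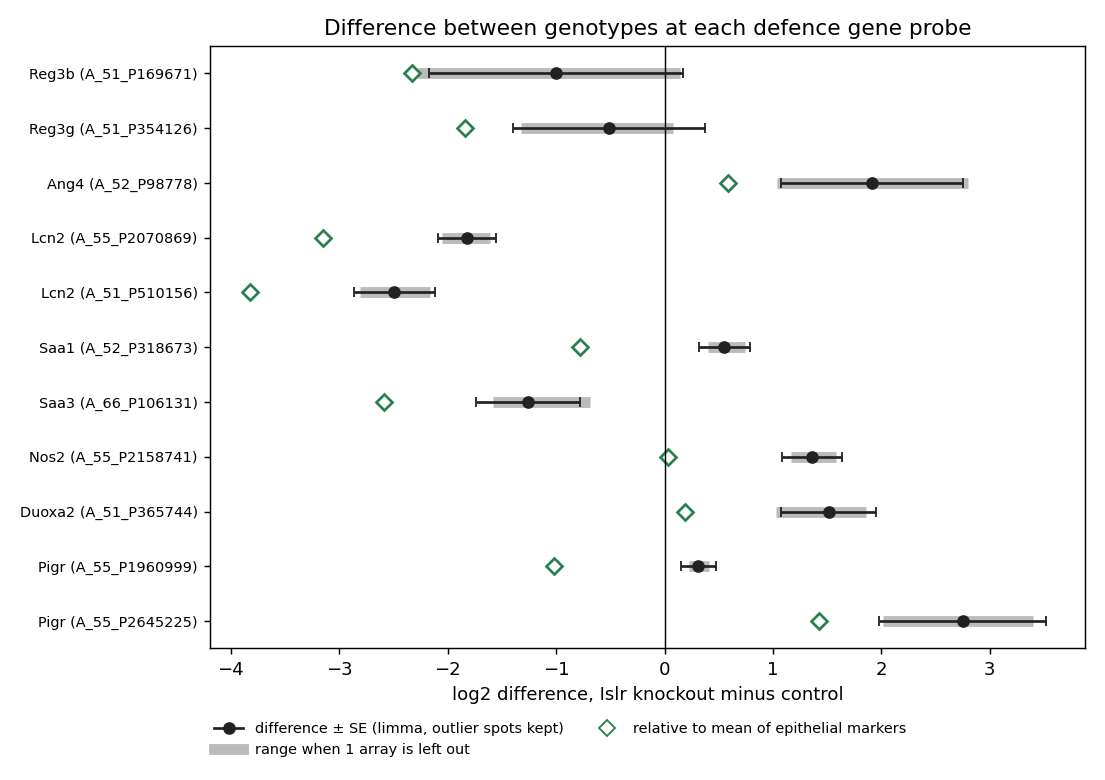
Log2 difference between Islr knockout and control mice (horizontal axis) at each of the 11 probes, with the moderated SE, the range when 1 array is left out (grey) and the difference relative to the mean of 12 epithelial markers (diamonds). Nos2 and Duoxa2 lie above 1 on the array scale and near 0 relative to epithelial markers, whereas both Lcn2 probes lie below 0 on both.

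The same programme was read in 77 other defence genes, of which 73 had a probe, 14 were not well above background on any array and 50 were tested with outlier spots missing. Of these 50, 4 were called higher and 6 lower, with a median of 0.05. Over all tested probes 1.55% were called higher and 2.42% lower. Ltf (lactoferrin, an iron-binding protein) was 3.66 higher, Ido1 (a tryptophan-degrading enzyme) 2.56, the secreted phospholipase Pla2g5 2.21 and S100g 4.05, with 2 of 3 control arrays well above background for S100g. S100g is a calcium-binding protein of absorptive cells rather than an antimicrobial one, and Ido1 was not called with outlier spots kept (1.63, adjusted p 0.234). Lower were S100a8, S100a9, the chitinase-like protein Chil3 (-3.40), the cathelicidin Camp (-1.20, also counted among the neutrophil markers) and both arginases, Arg1 (-2.72, SE 0.25, adjusted p 0.0156) and Arg2 (-3.49, SE 0.33, adjusted p 0.0208). Arginases use the same substrate as Nos2. Arg2 exceeded background clearly on 1 of 3 knockout arrays, so the size of its fall is uncertain. Dimmer probes not chosen to stand for their gene were also called for Pla2g5 and for Slpi, a protease inhibitor whose brightest probe differed by -0.60 (adjusted p 0.232).

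Among oxidase genes limma called 0 of 8 tested with outlier spots missing (3 at an unadjusted p below 0.05, against 26.8% of all probes). Noxa1 and Noxo1, cofactors of the epithelial oxidase NOX1, were 1.89 and 1.71 higher (adjusted p 0.0815 and 0.121), and Noxa1 was called with outlier spots kept (1.93, adjusted p 0.0362). Nox1 itself was not well above background at either of its probes. Of the phagocyte oxidase genes, Cybb differed by -0.97, Ncf1 by -0.91 and Ncf4 by -0.62, and none of these 3 was called (adjusted p 0.186 to 0.232).

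Of the cytokines, receptors and factors that feed these genes, 36 of 42 were tested, 1 was called higher and 1 lower, with a median of -0.08. The shares over all tested probes were 1.55% higher and 2.42% lower. Il17re, a receptor chain for interleukin-17C on epithelium, was 1.62 higher (SE 0.32, adjusted p 0.0468). Osm, which encodes the cytokine oncostatin M, fell by 2.45 (SE 0.37, adjusted p 0.0319). Il6, a cytokine that drives the acute phase response, was -0.49, 0.97 and 1.23 in controls and -5.75, -2.08 and -2.61 in knockouts, a difference of -4.05 that was not called (adjusted p 0.0671), with 2 of 3 knockout arrays well above background. Il1b was 2.15, 2.11 and 2.25 in controls and -1.81, 0.36 and 1.63 in knockouts, a difference of -2.12 (adjusted p 0.226). These are the brighter probes of Il6 and Il1b. Their dimmer probes differed by -5.47 and -2.90 and were not called either (limma adjusted p 0.0534 and 0.117). Tnf and Ifng differed by 0.14 and 0.39 (adjusted p 0.846 and 0.439), and Il17a was well above background on 1 array. All 7 tested interferon gamma genes were above 0, with 0 called by limma (3 at an unadjusted p below 0.05), led by Gbp2 at 0.86 and Irf1 at 0.85 (adjusted p 0.0827 and 0.0803). Of the genes in these related lists 12 were called in all, and leaving out 1 array gave 0 (knockout replicate 3), 1 (control replicate 2 or 3), 7 (knockout replicate 1), 9 (knockout replicate 2) or 14 (control replicate 1). Markers of innate lymphoid and T cells, a source of Il22, had a summed signal of 5.35 to 6.40 in controls and 7.36 to 8.71 in knockouts, with 0 of 6 called (1 at an unadjusted p below 0.05). The fibroblast sum was 26.4 to 31.2 and 15.7 to 22.4, with 0 of 4 called (2 at an unadjusted p below 0.05). The part of these cells in the values above was not tested.

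**Figure D4:**
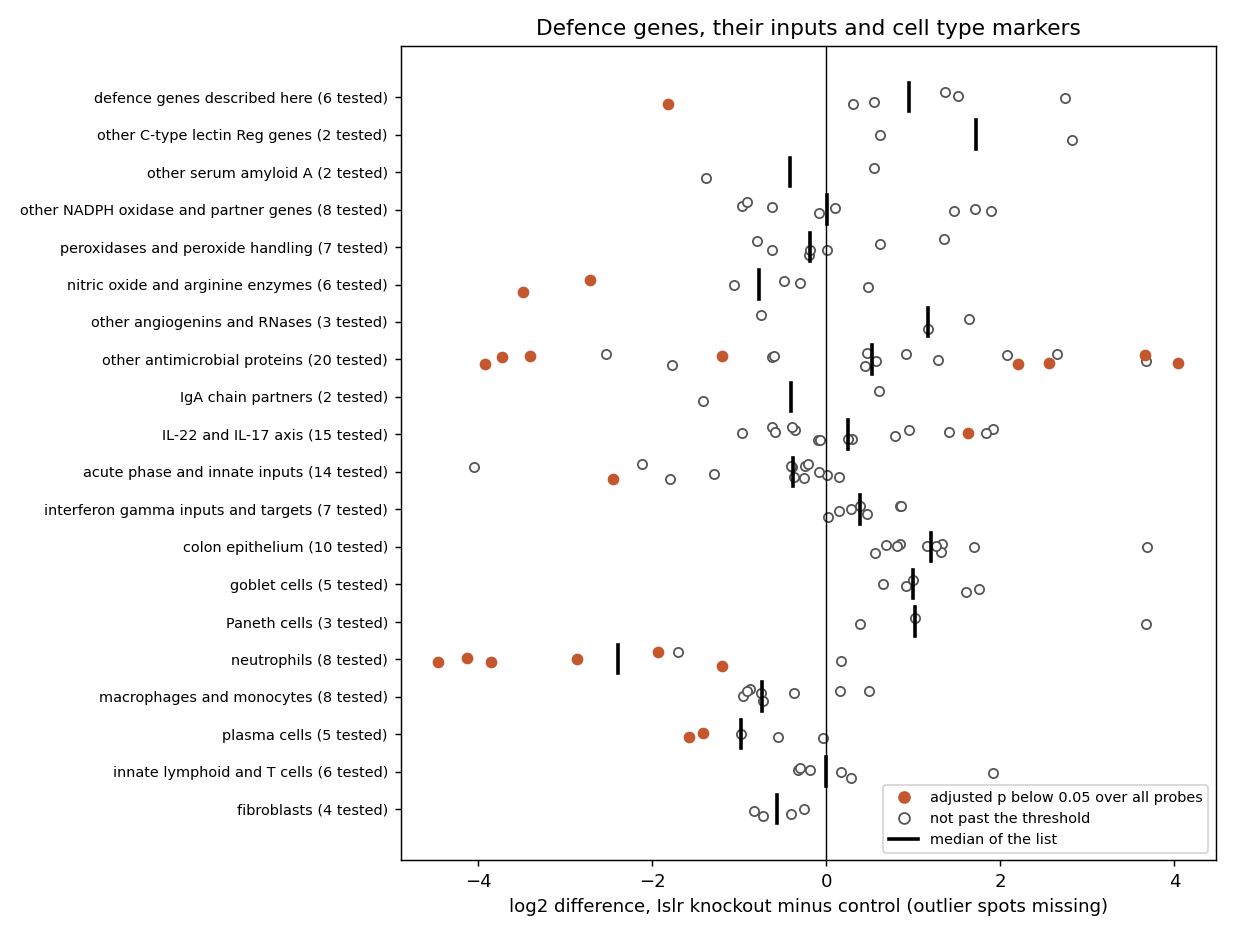
Log2 difference with outlier spots missing (horizontal axis) for each tested gene of the defence group, of related defence and input lists and of cell type markers; filled points have a limma adjusted p below 0.05 and bars are list medians. Neutrophil markers lie mostly below 0, epithelial, goblet and Paneth markers lie above 0, and the defence group has 1 called probe, Lcn2, below 0.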

How the data were processed

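Total RNA of colon from 3 control and 3 Islr knockout mice was labelled and hybridised to 1 array each. The deposited files hold the red channel alone, per the file headers, although the labels name Cy3; the red columns were used. The deposited processed signal is a linear intensity, detrended and background-subtracted in Feature Extraction 11.5.1.1, per the file headers, with no scaling between arrays. The deposited 0 or 1 flags (an "other" unit) mark outlier, saturated and well above background spots, per the file headers. The deposited value table of the series holds the same intensity: each column's log2 correlation with its scanner file was at least 0.999999 (column medians 489 to 825). It served as an alternative.

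Signals were converted to log2 and each array's 75th percentile was subtracted; spots of the same probe (10 spots for 300 probes) were averaged. Tests took in a probe well above background on all 3 arrays of a group with at least 2 usable values in each group. Genotype was tested with limma 3.58.1 in R 4.3.3 (lmFit, eBayes, two-sided, no pairing), with Benjamini-Hochberg adjustment over all tested probes at 5%. Exact permutation tests were two-sided. P-values measure the spread between these mice, of whose litters the labels say nothing. RefSeq accessions, versions removed, named 33767 of 56605 probes (59.7%) in GRCm38.p6; the files' design uses mm9, so no probe coordinates are given. The brightest probe stands for a gene in lists. The members, lists and rule for named genes (every member, list genes past the threshold and 14 fixed genes) were chosen with earlier results of these data known; the pairs of probes and the scale relative to epithelial markers were chosen after seeing the values. The procedure was tested on simulated data with 200 planted changes. It recovered 7% of those of log2 size 1 and 49% of those of size 2, and 2 of its 58 calls were false. A difference that was not called is therefore not shown to be absent. Precision is limited by the number of arrays, 3 in each group.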

Additional observations from a re-analysis of the deposited data

How the results depend on the processing

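The number of probes called over the whole array, 1403, was 2773 under normexp with quantile normalization, 2249 with array medians, 2185 under quantile normalization, 484 with no filter on dim probes, 9292 with array weights (49.4% higher, against 39.1%) and 2274 from the value table; leaving out 1 array gave 40 to 2114. Called probes of the defence group, 1, became 3 with outlier spots kept and from the value table, 2 under normexp, array medians, quantile normalization and the filter on all 6 arrays, and 5 with array weights; leaving out 1 array gave 0 to 1. With outlier spots kept the 3 calls became 7 with array weights and 0 to 4 with 1 array left out. The 12 calls in related lists became 6 with no filter on dim probes, 38 with array weights and 0 to 14 with 1 array left out. The cause was not tested. Leaving out 1 array moved Reg3b from -2.28 to 0.14 and Reg3g from -1.33 to 0.081. Relative to epithelial markers, Saa1 reversed to -0.78 and the bright Pigr probe to -1.02. No member probe changed sign under the other alternatives run. The mean over both probes of a gene, a value with no test, was -2.16 for Lcn2 (-1.82 at its brighter probe) and 1.53 for Pigr (0.31 at its bright probe); it was not run for the related lists. No paired analysis was possible because the labels give no shared replicate numbers.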

Other observations

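Among 16764 named genes well above background on all arrays, those whose mean-centred log2 values lay closest to Lcn2 over the 6 arrays, by root mean square difference, were Lamc1 (0.0897), B3gnt9 (0.118), Lifr (0.130), Bmp6 (0.142) and C1qtnf1 (0.143). Lamc1 encodes a laminin chain of basement membranes, Lifr a receptor of the interleukin-6 family and Bmp6 a bone morphogenetic protein. With outlier spots kept, the knockout minus control differences of these 5 genes lay between -1.91 and -1.64. Closest to Nos2 were Gm12409 (0.0577), Sorcs2 (0.0708), Lypd3 (0.108), Fhad1os1 (0.111) and Rbbp8nl (0.118), with differences of 1.19 to 1.54. These genes were picked for their likeness, so their differences are a description.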
